A study of Homo sapiens with 8 samples.

Results

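The genes of the proteasome were followed in nascent RNA of human fibroblasts driven into senescence, with and without knockdown of METTL3 or METTL14. They were taken by symbol as every protein-coding row named PSMA, PSMB, PSMC, PSMD, PSME, PSMF or PSMG with a number, without PSMB8 and PSMB9, which gave 46 genes of the 27945 rows of the count table. By role they were 8 alpha and 9 beta subunits of the core particle, 6 ATPases and 11 non-ATPase subunits of the regulatory particle, 5 alternative activators or inhibitors and 7 assembly chaperones. All cells were IMR90, diploid embryonic lung fibroblasts, carrying an inducible fusion of the estrogen receptor with H-RASG12V, named ER:RAS. Control cells, labelled WT, were compared with senescent cells that expressed shControl, shMETTL3 or shMETTL14, with 2 libraries per group and 8 in all. By the study's methods RAS was induced with 100 nM 4-OHT, the cells were harvested on day 6, and the short hairpins came from lentiviral vectors with puromycin selection. The labels name no hairpin in the control cells, so effects of the hairpin vector and of senescence cannot be told apart where senescent shControl cells are set against control cells. Each target was represented by 1 hairpin label. METTL3 and METTL14 form the core of the complex that writes N6-methyladenosine on RNA.

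The proteasome is the protease that degrades proteins tagged with ubiquitin. A barrel of stacked rings holds the proteolytic sites inside. The outer rings are made of alpha subunits that gate the entrance, and the inner rings are made of beta subunits, of which PSMB5, PSMB6 and PSMB7 carry the constitutive active sites. A regulatory particle caps the barrel: its ATPases unfold the substrate and feed it in, while its non-ATPase subunits bind ubiquitin chains and cut them off. Alternative caps such as PSME3 and PSME4 open the barrel without that machinery. In many cells the transcription factor NFE2L1 raises the transcription of proteasome genes when proteolysis is limiting.

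FastGRO-seq labels RNA as it is being made by engaged polymerases, and a gene's count is read here as transcription over its body. Totals ran from 14897360 to 20306299 counts per library, of which 86.2% to 92.5% lay on 21 ribosomal RNA rows, leaving 1513930 to 2048475 counts on other genes. Counts below are normalized by the trimmed mean of M-values (TMM), which scales each library to the bulk of its genes, and a change is therefore relative to the other genes of that library. Raw read counts of the METTL3 gene were 80 and 78 in control cells, 77 and 47 in senescent cells with shControl, 16 and 19 when METTL3 was targeted, and 73 and 56 when METTL14 was, with a log2 difference of −2.04 ± 0.31 (SE) between shMETTL3 and shControl (edgeR adjusted p = 1.79e-05). For METTL14 they were 60 and 55, 24 and 28, 41 and 48, and 18 and 14 in the same order, and the difference between shMETTL14 and shControl, −0.86 ± 0.34 (SE), did not pass the threshold (edgeR adjusted p = 0.0763). Hairpins act on mature transcripts, whereas METTL3 counts fell in the libraries with its own hairpin. How much mature RNA the counts hold was not tested, for the proteasome genes either. All 8 fibroblast markers examined were detected, with summed normalized counts of 29290 to 31359 in control cells and, in senescent cells, 20623 to 22134 (shControl), 23920 to 28220.0 (shMETTL3) and 13735 to 16211 (shMETTL14). These sums join markers that went opposite ways. In senescence 6 of 8 were called lower and VIM higher, against 13.3% of all tested genes in each direction. With shMETTL3 FN1 was higher and THY1 lower, against 12.2% and 11.2%. With shMETTL14 6 were lower and 0 higher, against 12% and 9.15%. Normalized sums of 4 endothelial markers were 8.71 to 8.86 in control cells, 4.45 to 7.09 (shControl), 6.16 to 6.65 (shMETTL3) and 2.999 to 3.16 (shMETTL14). Those of 4 leukocyte markers were 15.1 to 15.7 in control cells, 51.2 to 74.5 (shControl), 25.6 to 47.2 (shMETTL3) and 47.4 to 51.0 (shMETTL14), with CD3E and MS4A1 at 0, and rested mainly on the lysosomal gene CD68, which was higher in senescence by 2.05 ± 0.33 (SE) and lower with shMETTL3 by a log2 fold change of −0.84 ± 0.30 (SE). Those of 6 epithelial markers were 47.8 to 51.4 in control cells, 28.9 to 54.4 (shControl), 21.8 to 23.6 (shMETTL3) and 61.1 to 78.0 (shMETTL14), and the keratin genes KRT8 and KRT18 were higher with shMETTL14 than with shMETTL3 by 1.38 ± 0.43 and 1.63 ± 0.38 (SE). Fibroblast, endothelial, leukocyte and epithelial marker counts thus moved with the groups, and their part in the proteasome results was not tested.

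Of the 46 genes, 44 had enough counts to be tested among 12844 genes. The exceptions were PSMA8, an alpha subunit of the testis, with 1 and 3 counts in control and 0 in every senescent library, and PSMB11, the beta subunit of the thymus, with 0 in every library. Summed over the members, a library held between 4723 and 5239 counts, and standard errors were accordingly wide for the weakest genes. The deposited counts did not separate strands: in 314 of 315 pairs of nested genes on opposite strands (the inner one holding 100 counts or more), the enclosing gene did not have the smaller total, so overlapping genes share reads. The members with the largest share of their span under another gene, on the opposite strand in each case, were PSMC2 with 76.2% under SLC26A5, PSMG2 with 60.9% under CEP76 and PSMA3 with 24.4% under PSMA3-AS1. Values of these 3 genes are therefore uncertain. A total of 36 members shared no base, and 39 shared less than 5% of their span.

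To show the DNA from which these genes are transcribed, the 250 bases before the annotated start (hg19) are given for 5 members on which the comparisons below turn: PSMD2 and PSMD8, which rose most in senescence, PSMD3 and PSMC3, which fell with shMETTL3, and PSMA4, which fell with shMETTL14. The windows are chr3:184016636-184016885, chr19:38864940-38865189, chr17:38136771-38137020 and chr15:78832497-78832746 on the plus strand and chr11:47448025-47448274 on the minus strand, and none overlaps an annotated exon in GENCODE v44 lifted to that build. The gene bodies over which reads were counted, exons and introns together, were chr3:184016886-184026842 for PSMD2, chr19:38865190-38874464 for PSMD8, chr17:38137021-38154213 for PSMD3, chr11:47440320-47448024 for PSMC3 and chr15:78832747-78841604 for PSMA4. Each window is written 5′ to 3′ toward the start site. Capitals mark matches, on either strand, to the antioxidant response element core that NFE2L1 and its relatives recognise (TGACNNNGC), the CCAAT box (CCAAT), the ETS core (CCGGAAG) and the GC box (GGGCGG), and no base of these 5 windows fell in 2 of these motifs.
PSMD2: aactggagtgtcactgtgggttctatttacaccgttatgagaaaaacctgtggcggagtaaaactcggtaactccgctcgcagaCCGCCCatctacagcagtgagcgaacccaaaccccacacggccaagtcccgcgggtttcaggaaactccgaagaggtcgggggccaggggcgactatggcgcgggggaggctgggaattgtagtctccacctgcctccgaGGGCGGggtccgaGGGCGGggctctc
PSMD8: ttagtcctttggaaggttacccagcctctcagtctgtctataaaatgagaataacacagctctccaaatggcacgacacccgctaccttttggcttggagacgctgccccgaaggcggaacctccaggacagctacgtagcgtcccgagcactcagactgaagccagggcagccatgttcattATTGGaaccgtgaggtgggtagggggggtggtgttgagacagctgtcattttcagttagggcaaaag
PSMD3: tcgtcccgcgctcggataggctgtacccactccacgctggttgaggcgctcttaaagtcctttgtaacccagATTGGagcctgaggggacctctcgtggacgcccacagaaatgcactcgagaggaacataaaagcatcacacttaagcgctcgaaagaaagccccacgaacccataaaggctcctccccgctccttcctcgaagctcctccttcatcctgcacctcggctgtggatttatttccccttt
PSMC3: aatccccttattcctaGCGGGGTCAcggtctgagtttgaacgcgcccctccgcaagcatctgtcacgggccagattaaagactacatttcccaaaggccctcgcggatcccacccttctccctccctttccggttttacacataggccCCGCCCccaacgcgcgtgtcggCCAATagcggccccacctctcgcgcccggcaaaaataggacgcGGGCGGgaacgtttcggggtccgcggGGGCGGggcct
PSMA4: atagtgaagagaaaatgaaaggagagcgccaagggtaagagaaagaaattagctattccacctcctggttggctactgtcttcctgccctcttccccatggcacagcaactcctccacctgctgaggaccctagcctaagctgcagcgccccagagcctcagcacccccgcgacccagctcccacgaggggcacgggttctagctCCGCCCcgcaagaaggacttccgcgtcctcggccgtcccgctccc

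PSMC3 held the element core, a CCAAT box and 3 GC boxes, PSMD2 held 3 GC boxes, PSMA4 held 1 GC box, and PSMD8 and PSMD3 held 1 CCAAT box each. Over all members, the element core stood in 12 of 46 windows (26.1%), against 11.4% of the 11497 windows of tested protein-coding genes and 10.8% of all 19409. The 12 were PSMA6, PSMA7, PSMB3, PSMC3, PSMD5, PSMD9, PSMD12, PSME1, PSME2, PSME4, PSMG1 and PSMG2. A CCAAT box stood in 34.8% of the members' windows against 33.1% of tested protein-coding genes, a GC box in 58.7% against 62.2%, an ETS core in 15.2% against 12.1%, and the YY1 core (AAGATGGCG) in 0 of 46 against 1.24%. The median log2 fold change of the 12 members with the element core and of the 32 tested members without it was 0.24 and 0.37 in senescence, −0.36 and −0.34 with shMETTL3, and −0.22 and −0.13 with shMETTL14. A match is a description of letters in a short window, and no binding was measured here.

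Levels were compared between genes per kilobase of gene length. In control cells PSMB4, a beta subunit encoded by a gene of 2.37 kb, was highest at a normalized count of 36.9 per kb, followed by PSMD2, a large scaffold subunit of the regulatory particle, at 29.3 per kb. In senescent shControl cells the order was exchanged, at 64.4 per kb for PSMD2 and 56.3 per kb for PSMB4, and PSMD2 was also highest with shMETTL3 and shMETTL14, at 45.4 and 53.4 per kb. Among the 44 tested members, PSMA1, whose row spans 138.8 kb, was lowest in control, shControl and shMETTL14 cells at 0.594, 0.694 and 0.774 per kb, and PSMG2 was lowest with shMETTL3 at 0.518 per kb. The mean normalized count of PSMA1 in control cells, 82.4, was above the 64.1 of PSMA2, which spans 15.3 kb. The low rank of PSMA1 therefore rests on the annotated length of its row. PSMB10, the remaining inducible active-site subunit, stood at 5.34 per kb in control cells but rested on 3 to 22 counts per library. Neighbours in the middle of the order, such as PSMD6, PSMB7 and PSMA3 at 5.01, 4.95 and 4.94 per kb in control cells, differed by less than their spread between libraries.

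**Figure D1:**
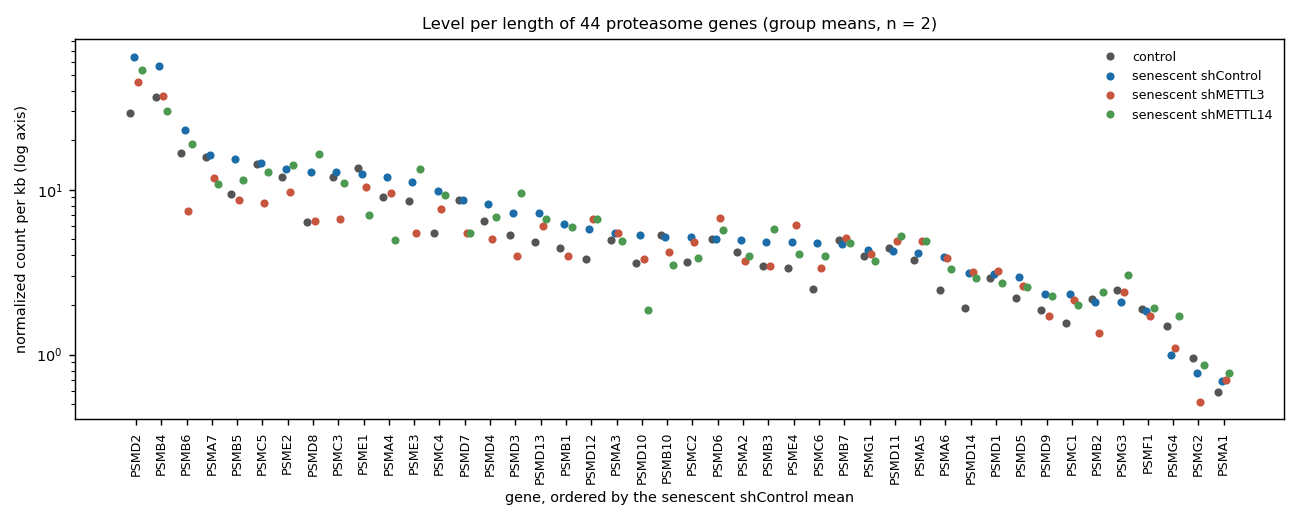
Normalized nascent RNA count per kb (log axis, group means of 2 libraries) for the 44 tested proteasome genes, ordered by the senescent shControl mean, with a point for each of the 4 groups. PSMD2 and PSMB4 stand above all others, at 64.4 and 56.3 per kb in senescent shControl cells, and PSMA1 is lowest there at 0.694 per kb over an annotated length of 138.8 kb.

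The first comparison asked how transcription of these genes differed in senescence. Relative to other genes of the library, 11 of 44 members rose in senescent shControl cells compared with control and 0 fell, whereas 13.3% of all tested genes were called higher and 13.3% lower. They came from several roles: 5 of 11 non-ATPase subunits, 2 of 6 ATPases, 2 of 8 beta subunits, 1 of 7 alpha subunits, 1 of 5 activators or inhibitors and 0 of 7 assembly chaperones. The median log2 fold change was 0.34 over the members and −0.03 over all genes, and with scaling to total counts, ribosomal RNA included, it was −0.15 against −0.53, with 1 member higher (PSMD2) and 5 lower (PSMB2, PSMB7, PSMD11, PSMF1 and PSMG2), where 5.85% and 39% of all tested genes were called. The difference between the medians was 0.38 under both scalings. In such bulk libraries, fewer cells that transcribe a gene and less transcription per cell cannot be told apart. At an unadjusted p under 0.05, 16 members were higher and 0 lower with edgeR, against 18.1% and 19% of all tested genes, and with DESeq2 8 were higher and 0 lower after adjustment, against 9.58% and 7.07%. Summed over the 46 genes, the normalized counts were 4257 and 4243 in control and 5626 and 5550 with shControl.

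PSMD2 gave the largest rise. Its normalized counts were 294 and 290 in control against 641 and 641 in senescent shControl cells, a log2 fold change of 1.13 ± 0.14 (SE, edgeR adjusted p = 2.3e-07), and the groups did not overlap. Here and below, such a lack of overlap describes 2 libraries against 2. It also occurred in members that were not called, such as PSMC1 and PSMC2, and its share over all tested genes was not counted. It therefore adds no support to a call. PSMD8, a lid subunit, went from 64.6 and 54.0 to 119 and 120, a log2 fold change of 1.01 ± 0.20 (SE, edgeR adjusted p = 0.000249). PSMD14, the enzyme that removes ubiquitin chains from the substrate before it enters, went from 208 and 190 to 330 and 322, a change of 0.71 ± 0.14 (SE, edgeR adjusted p = 0.000288). Both genes were higher in each shControl library than in each control library. PSMD12, another lid subunit, went from 100 and 118 to 154 and 179 (0.61 ± 0.18, SE, edgeR adjusted p = 0.0143). PSMD13, a lid subunit too, passed with the largest adjusted p of the 11.

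Of the ATPases, PSMC6 went from 54.0 and 49.6 to 108 and 90.1 (0.93 ± 0.22, SE, edgeR adjusted p = 0.00197) and PSMC4 from 52.2 and 65.3 to 109 and 104 (0.85 ± 0.22, SE, edgeR adjusted p = 0.00465). The other 4 ATPases were not called. Log2 fold changes of the 6 ran from 0.03 for PSMC5 to 0.93 for PSMC6 with TMM, where 47.5% of all tested genes lay above 0, and 4 of the 6 lay above 0 with scaling to total counts, where 19.8% of all did. In the core particle, PSMB5, the chymotrypsin-like subunit, went from 89.4 and 87.1 to 135 and 150 (0.69 ± 0.18, SE, edgeR adjusted p = 0.00505). The other constitutive active-site subunits were not called: PSMB6, the caspase-like one, had a log2 fold change of 0.46 ± 0.28 (SE) and PSMB7, the trypsin-like one, −0.08 ± 0.14 (SE). PSMB4 went from 89.4 and 85.3 to 129 and 138 (0.61 ± 0.18, SE, edgeR adjusted p = 0.012), and PSMA6, an alpha subunit, from 109 and 82.7 to 167 and 139 (0.67 ± 0.19, SE, edgeR adjusted p = 0.00781). PSME4, a nuclear cap that lacks ATPase activity, went from 355 and 363 to 543 and 482 (0.51 ± 0.14, SE, edgeR adjusted p = 0.00722). In PSMC6, PSMC4, PSMB5, PSMB4, PSMA6 and PSME4 the groups did not overlap. Among the chaperones, log2 fold changes ran from −0.56 for PSMG4 to 0.56 for PSMD10.

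The number of genes called in senescence depended on single libraries. It was 5 without shControl replicate 1, 7 without control replicate 1, 7 without control replicate 2 and 8 without shControl replicate 2, where 7.82%, 8.65%, 9.13% and 9.74% of all genes tested in those fits were called higher. PSMD2, PSMD8 and PSMD14 were called in all 4 of these fits, whereas each of the other 8 genes was lost in at least 1 of them, PSMB4 in all 4.

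**Figure D2:**
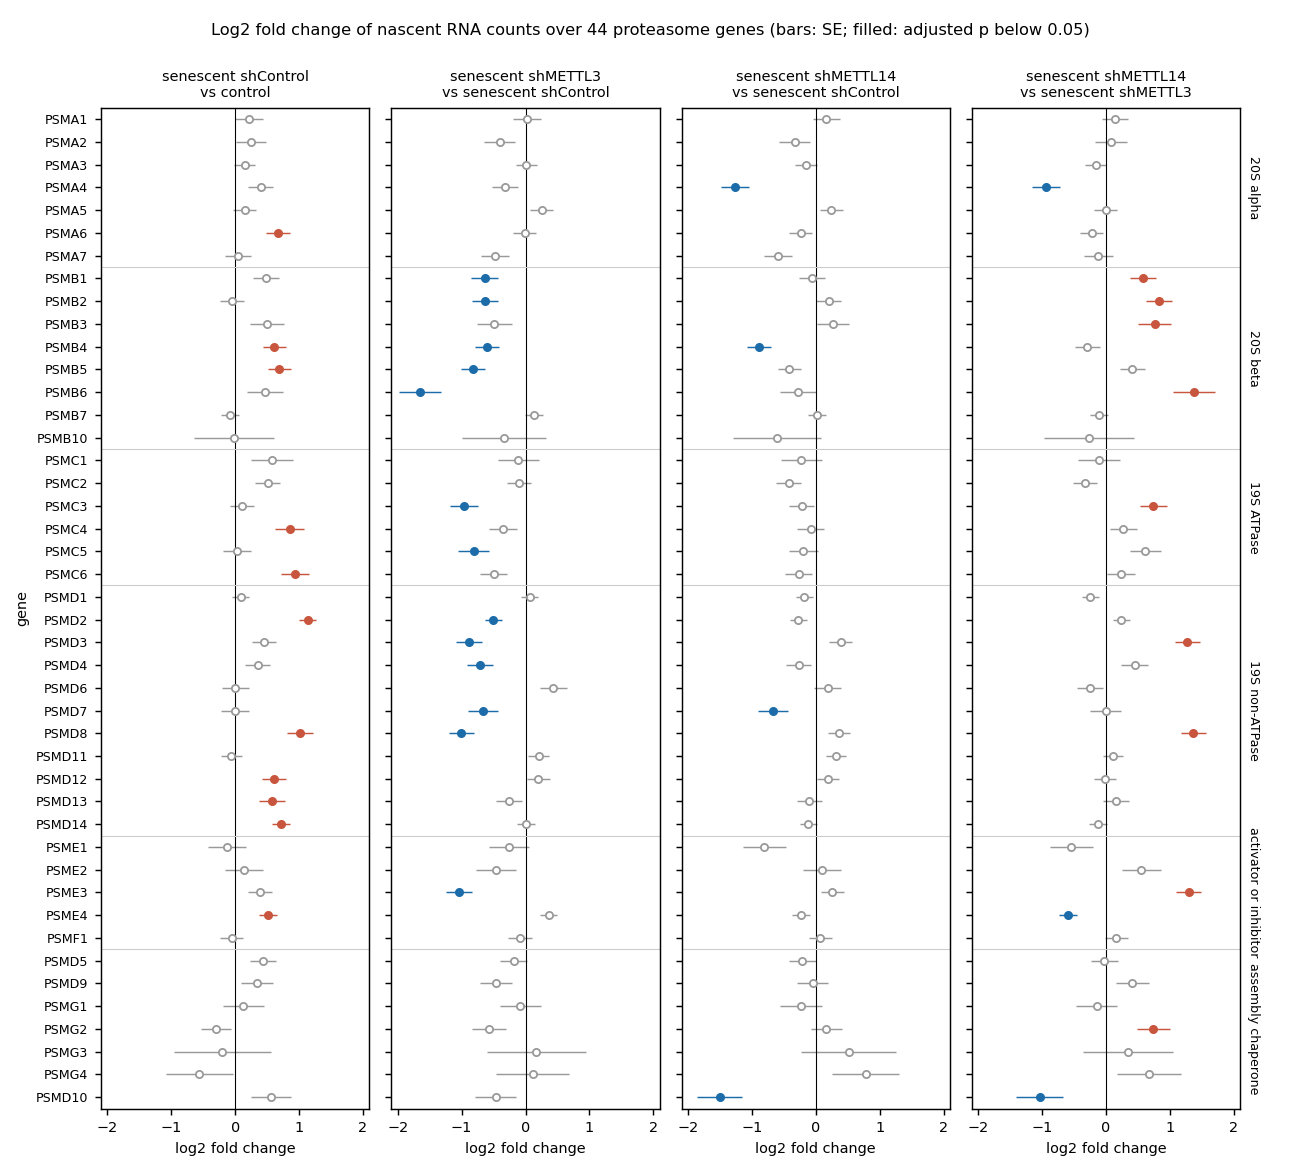
Log2 fold change (horizontal axis; bars are SE) of the 44 tested proteasome genes in the 4 comparisons, ordered by role, with filled points where the edgeR adjusted p is below 0.05. The first panel holds 11 filled points, all right of 0, the second 13 and the third 4, all left of 0, and the fourth 9 right and 3 left of 0; these directions are for TMM scaling, and with scaling to total counts the counts higher and lower were 1 and 5, 12 and 1, 6 and 2, and 4 and 5.

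The second comparison asked what METTL3 knockdown changed in senescent cells. Relative to other genes, 13 of 44 members fell with shMETTL3 compared with shControl and 0 rose, where 11.2% of all tested genes were called lower and 12.2% higher. The falls lay in 5 of 8 beta subunits, 5 of 11 non-ATPase subunits, 2 of 6 ATPases and 1 of 5 activators or inhibitors, with 0 of 7 alpha subunits and 0 of 7 chaperones. The members' median log2 fold change was −0.34 against −0.03 over all genes, and with scaling to total counts it was 0.26 against 0.58, with 12 members higher and 1 lower (PSMB6), where 41.1% and 2.75% of all tested genes were called. The difference between the medians was −0.31 with TMM and −0.32 with total counts. At an unadjusted p under 0.05, 2 members were higher and 16 lower with edgeR, against 17.3% and 17.5% of all tested genes, and DESeq2 called 0 higher and 7 lower after adjustment, against 8.03% and 6.01% of the genes to which it gave an adjusted p. Of the 37 tested members that shared under 5% of their span with another gene, 12 were called lower, all but PSMC5.

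PSMB6 showed the largest fall. Normalized counts went from 54.4 and 54.5 in the shControl libraries to 22.6 and 12.3 after knockdown, a log2 fold change of −1.65 ± 0.33 (SE, edgeR adjusted p = 0.000496), and the control cells had 43.4 and 35.7. It was the single member called lower under both scalings. PSME3, the nuclear cap known as PA28 gamma, went from 121 and 111 to 62.6 and 50.3, a change of −1.04 ± 0.20 (SE, edgeR adjusted p = 0.00039). PSMD8 went from 119 and 120 to 60.5 and 58.9, a change of −1.004 ± 0.20 (SE, edgeR adjusted p = 0.000496), which placed it within the range of the control libraries. PSMC3, an ATPase, went from 95.8 and 102 to 56.4 and 45.6 (−0.96 ± 0.21, SE, edgeR adjusted p = 0.00155). PSMD3, a lid subunit, went from 126 and 124 to 78.0 and 57.9 (−0.88 ± 0.20, SE, edgeR adjusted p = 0.00225). In all 5 genes each shMETTL3 library lay below each shControl library.

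PSMB5 went from 135 and 150 to 74.9 and 85.4 (−0.83 ± 0.19, SE, edgeR adjusted p = 0.00173), and of the active-site subunits PSMB7 was not called, at 0.13 ± 0.14 (SE). PSMC5, an ATPase of which 5.67% of the span lies under FTSJ3, went from 66.2 and 69.0 to 39.0 and 38.0 (−0.81 ± 0.24, SE, edgeR adjusted p = 0.0159). PSMD4, the subunit that holds a receptor for ubiquitin chains, went from 103 and 108 to 73.9 and 55.1 (−0.71 ± 0.20, SE, edgeR adjusted p = 0.0117). PSMB4 went from 129 and 138 to 91.3 and 84.5 (−0.60 ± 0.18, SE, edgeR adjusted p = 0.0171), and PSMD2 from 641 and 641 to 485 and 418 (−0.51 ± 0.13, SE, edgeR adjusted p = 0.0062). In PSMB5, PSMC5, PSMD4, PSMB4 and PSMD2 the groups did not overlap either, and PSMD2 was still above its control libraries. The other 3 called genes were the beta subunits PSMB1 and PSMB2 and the lid subunit PSMD7, with changes of −0.64, −0.63 and −0.67. The alpha subunits had log2 fold changes from −0.48 for PSMA7 to 0.25 for PSMA5, and PSMD14 was at 311 and 344 (0.01 ± 0.14, SE).

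Here too single libraries mattered. Without shControl replicate 1 the number called lower was 6 and without shControl replicate 2 it was 7, while it was 18 without shMETTL3 replicate 1 and 9 without shMETTL3 replicate 2, against 6.25%, 5.3%, 15.1% and 7.89% of all genes tested in those fits. The 6 genes PSMB5, PSMB6, PSMC3, PSMD3, PSMD8 and PSME3 were called in all 4 fits. Of the other 7, PSMB2, PSMB4, PSMD4 and PSMD7 were lost without either shControl library and without shMETTL3 replicate 2, PSMC5 and PSMD2 without either shControl library, and PSMB1 without shControl replicate 1 and without shMETTL3 replicate 2. Without shMETTL3 replicate 1, PSME4 was called higher.

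**Figure D3:**
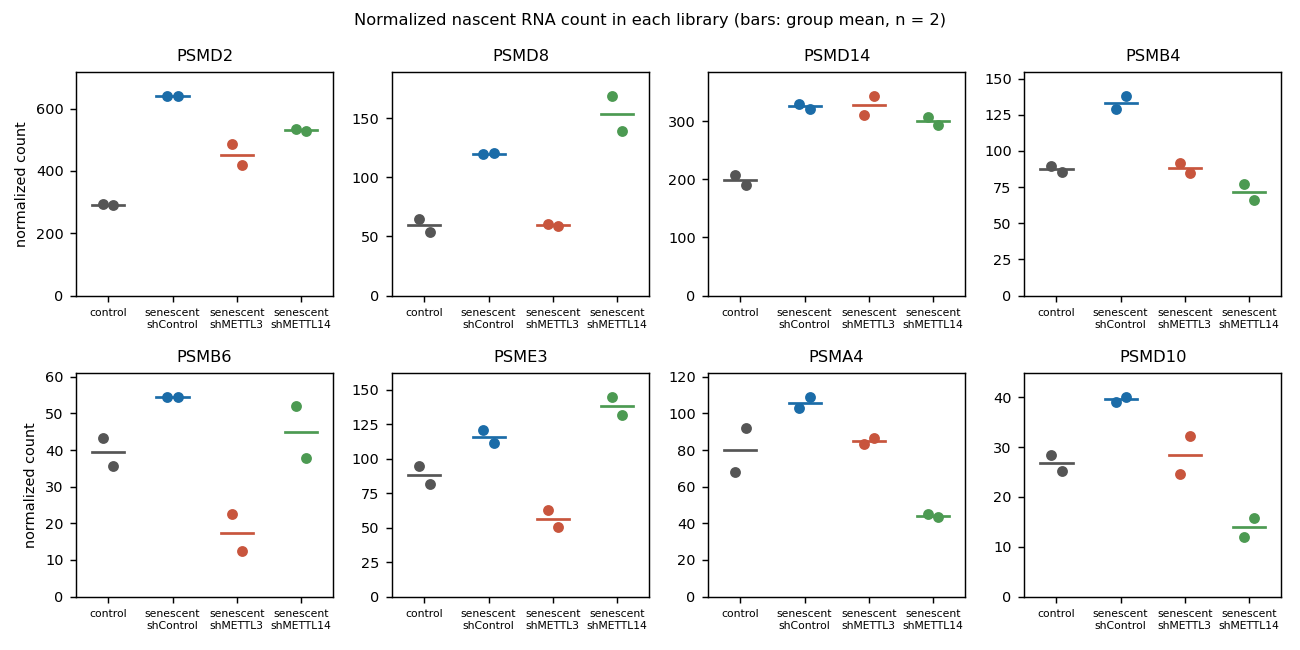
Normalized nascent RNA count (vertical axes start at 0) of 8 proteasome genes in each of the 8 libraries, with bars at the group means. PSMD2, PSMD8, PSMD14 and PSMB4 were higher in both senescent shControl libraries than in both control libraries, PSMB6, PSME3 and PSMD8 were low with shMETTL3, and PSMA4 and PSMD10 were low with shMETTL14.

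The third comparison asked the same of METTL14 knockdown. Relative to other genes, 4 of 44 members fell with shMETTL14 compared with shControl and 0 rose, or 9.09% and 0%, where 12% of all tested genes were called lower and 9.15% higher. The members' median log2 fold change was −0.16 against 0.00 over all genes, and with scaling to total counts it was 0.19 against 0.35, with 6 members higher (PSMA5, PSMD3, PSMD8, PSMD11, PSMD12 and PSME3) and 2 lower (PSMA4 and PSMD10), where 24.6% and 5.53% of all tested genes were called. At an unadjusted p under 0.05, 1 member was higher and 9 were lower with edgeR, against 15.5% and 17.6% of all tested genes, and DESeq2 called 0 higher and 3 lower after adjustment, against 4.7% and 7.86% of the genes to which it gave an adjusted p. With the relation to gene length taken out of the fit, more than 4 members were lower, as given below, where 12% of all tested genes were.

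PSMD10, the chaperone gankyrin, which also is known to bind the retinoblastoma protein, fell from normalized counts of 39.0 and 40.1 with shControl to 11.99 and 15.8 under METTL14 knockdown, a log2 fold change of −1.50 ± 0.36 (SE, edgeR adjusted p = 0.00304). PSMA4, an alpha subunit, went from 103 and 109 to 44.98 and 43.2, a change of −1.26 ± 0.22 (SE, edgeR adjusted p = 0.000116). Both genes were also lower with shMETTL14 than in each control library, where PSMD10 had 28.3 and 25.3 and PSMA4 68.2 and 92.3. PSMB4 went from 129 and 138 to 77.0 and 66.3 (−0.89 ± 0.19, SE, edgeR adjusted p = 0.000977), and PSMD7 from 92.2 and 73.5 to 53.0 and 50.5 (−0.67 ± 0.23, SE, edgeR adjusted p = 0.0404). The active-site subunits were not called, with −0.41 ± 0.18 (SE) for PSMB5, −0.27 ± 0.28 (SE) for PSMB6 and 0.02 ± 0.14 (SE) for PSMB7. PSMA4 and PSMB4 were called whichever single library was left out, whereas PSMD10 was lost without shMETTL14 replicate 1 and PSMD7 in each of the 4 fits, so the number of genes called ran from 2 without shMETTL14 replicate 1 to 4 without shMETTL14 replicate 2, against 5.76% and 8.91% of all genes.

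The fourth comparison set the knockdowns against each other directly, which tests the difference between their effects. With shMETTL14, 9 members (20.5%) were higher than with shMETTL3 and 3 (6.82%) were lower, against 16.5% and 18.7% of all tested genes, so that 27.3% of the members were called against 35.2% of all. The higher ones were 4 of 8 beta subunits (PSMB1, PSMB2, PSMB3 and PSMB6), the ATPase PSMC3, the lid subunits PSMD3 and PSMD8, the cap PSME3 and the chaperone PSMG2, and the lower ones were PSMA4, PSMD10 and PSME4. The members' median was 0.12 against 0.01 over all genes, and it was −0.14 against −0.25 with scaling to total counts, with 4 members higher and 5 lower against 9.16% and 27.1% of all tested genes, and −0.03 against 0.00 once the relation to gene length was taken out.

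PSMD8 was at 169 and 139 with shMETTL14 against 60.5 and 58.9 with shMETTL3, a log2 difference of 1.37 ± 0.19 (SE, edgeR adjusted p = 3.44e-06). PSME3 was at 145 and 132 against 62.6 and 50.3 (1.30 ± 0.20, SE, edgeR adjusted p = 9.32e-06), and PSMD3 at 184 and 143 against 78.0 and 57.9 (1.27 ± 0.20, SE, edgeR adjusted p = 1.26e-05). PSMB6 was at 51.97 and 37.9 against 22.6 and 12.3 (1.37 ± 0.33, SE, edgeR adjusted p = 0.00199). In these 4 genes no shMETTL14 library overlapped with a shMETTL3 library, which adds no support to a call. All 4 were called under total-count scaling as well. PSMB2, PSMB3, PSMC3, PSMG2 and PSMB1 differed by 0.83, 0.76, 0.74, 0.74 and 0.58. In the opposite direction, PSMA4 was at 44.98 and 43.2 against 83.1 and 86.4 (−0.94 ± 0.22, SE, edgeR adjusted p = 0.00164), PSME4 at 414 and 456 against 593 and 722 (−0.60 ± 0.14, SE, edgeR adjusted p = 0.00137), and PSMD10 at 11.99 and 15.8 against 24.6 and 32.3 (−1.04 ± 0.37, SE, edgeR adjusted p = 0.0294). The number higher was 4 without shMETTL14 replicate 1 and 5 without shMETTL3 replicate 2, against 7.31% and 11.9% of all genes. PSMA4, PSMB2, PSMD3, PSMD8, PSME3 and PSME4 were called whichever library was left out, PSMB6 was lost without shMETTL14 replicate 1, PSMB1, PSMB3 and PSMC3 without that library and without shMETTL3 replicate 2, and PSMD10 and PSMG2 without either shMETTL14 library and without shMETTL3 replicate 2.

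Both knockdowns and the senescence comparison share the shControl libraries, so a high or low count there enters all 3 at once, and the values are set side by side without a test. PSMB4, PSMB5, PSMD2 and PSMD8 were called higher in senescence and lower with shMETTL3. PSMD8 had log2 fold changes of 1.01, −1.004 and 0.36 in senescence, with shMETTL3 and with shMETTL14, PSMD2 of 1.13, −0.51 and −0.27, PSMB5 of 0.69, −0.83 and −0.41, and PSMB4 of 0.61, −0.60 and −0.89. PSMB4 was called in all 3 comparisons, and PSMB4 and PSMD7 were called lower with both knockdowns. How many of all tested genes showed such joint calls was not counted, so these patterns are not read as particular to the members. The other 7 genes higher in senescence were not called with shMETTL3, where their log2 fold changes were −0.50 for PSMC6, −0.35 for PSMC4, −0.26 for PSMD13, −0.01 for PSMA6, 0.01 for PSMD14, 0.20 for PSMD12 and 0.36 for PSME4. In all, 24 of 44 members (54.5%) were called in at least 1 comparison, near the 56.8% of all tested genes, and 20 in none, and those in none included 5 of the 7 tested alpha subunits, 5 of 7 chaperones and PSMB7, PSMB10, PSMC1, PSMC2, PSMD1, PSMD6, PSMD11, PSME1, PSME2 and PSMF1.

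Gene length moved with the effect of METTL3 knockdown. Over the 44 members the log2 fold change with shMETTL3 had a Pearson r of 0.471 and a Spearman rho of 0.446 with gene length (on a log10 scale for r), and over 11505 tested protein-coding genes these were 0.297 and 0.341, as a description across genes that share the same libraries. The median of the 17 members under 10 kb was −0.48, of which 8 were called lower, and that of all protein-coding genes under 10 kb was −0.36, of which 16.6% were called lower. For members of 10 to 30 kb and over 30 kb the medians were −0.35 and 0.02, against −0.21 and 0.10 over protein-coding genes of the same length. Proteasome genes are short, with a median length of 14.2 kb against 34.3 kb. With the relation to length taken out of the fit, 7 members were lower (PSMB2, PSMB5, PSMB6, PSMC3, PSMD3, PSMD8 and PSME3) and 1 was higher (PSMD6), where 9.91% and 9.44% of all tested genes were called lower and higher in that fit, and the members' median was −0.15 against −0.01. With shMETTL14 the members' r and rho with length were 0.299 and 0.351 and those over protein-coding genes −0.057 and −0.117, the 4 members called lower were all under 10 kb, and 8 members were called lower with length taken out, the 4 and PSMA7, PSMB5, PSMD2 and PSME1, and 0 higher, against 12% and 10.3% of all tested genes. In the direct comparison r and rho were −0.13 and −0.088 over the members and −0.320 and −0.369 over protein-coding genes, and 6 members were higher and 7 lower with length taken out, against 15.3% and 16.5% of all tested genes.

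**Figure D4:**
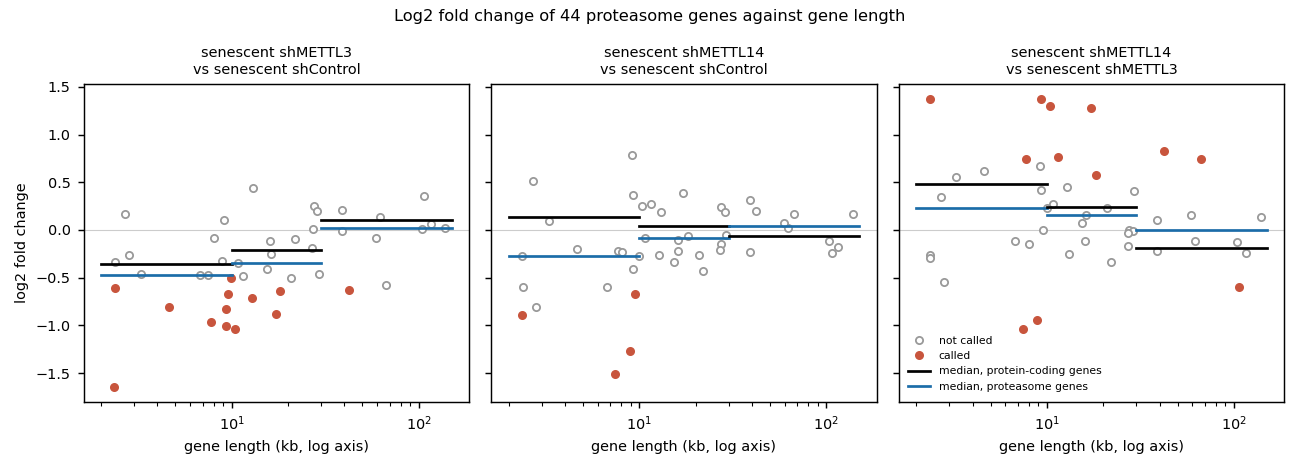
Log2 fold change (vertical axis) of the 44 tested proteasome genes against gene length in kb (log axis) for shMETTL3 and shMETTL14 against shControl and for shMETTL14 against shMETTL3, with horizontal lines at the medians of proteasome and of all tested protein-coding genes under 10 kb, from 10 to 30 kb and over 30 kb. With shMETTL3 both medians are lower for shorter genes, at −0.48 and −0.36 under 10 kb, and with shMETTL14 the proteasome median under 10 kb is −0.27 while that of protein-coding genes is 0.13; values are for TMM scaling, under which all-gene medians lie near 0, and scaling to total counts shifts them by 0.61, 0.35 and −0.26 in the 3 panels.

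Further genes of the pathway, outside the symbol rule, were read from 3 lists. Of 17 factors that associate with the proteasome or, as ADRM1 and SEM1, form part of it, 1 was higher in senescence (5.88%) and 0 lower. This was below the 13.3% of all tested genes called in each direction. That gene was POMP, which helps the core particle to mature, at 92.1 and 81.0 in control and 119 and 131 with shControl (0.54 ± 0.19, SE, edgeR adjusted p = 0.041). With shMETTL3 ZFAND5, which stimulates degradation by the proteasome, was higher and the shuttle factor UBQLN2 lower, and with shMETTL14 PITHD1 was higher and ZFAND5 lower, 1 of 17 in each direction where 12.2% and 11.2%, and 9.15% and 12%, of all tested genes were called higher and lower. ZFAND5 stood at 357 and 354 in shControl cells, at 660 and 834 after METTL3 knockdown and at 184 and 249 after METTL14 knockdown, and its difference between the knockdowns was −1.79 ± 0.15 (SE, edgeR adjusted p = 2.79e-09). The 4 factors higher with shMETTL14 than with shMETTL3 were the ubiquitin receptor ADRM1 and the shuttle factors UBQLN1, UBQLN2 and UBQLN4, which are 23.5% against 16.5% of all tested genes, and ZFAND5 was the 1 lower (5.88% against 18.7%).

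Of the 7 genes for NFE2L1 and the steps that activate it, UFD1, a cofactor of VCP, was the 1 gene called in senescence (0.70 ± 0.20, SE, edgeR adjusted p = 0.0118), 14.3% against 13.3% of all tested genes called higher. NFE2L1 itself was at 248 and 204 in control cells and, in senescent cells, at 273 and 262 (shControl), 247 and 229 (shMETTL3) and 386 and 355 (shMETTL14). It was not called in senescence (0.24 ± 0.14, SE) or with shMETTL3 (−0.17 ± 0.14, SE), and it was higher with shMETTL14 than with shControl (0.47 ± 0.14, SE, edgeR adjusted p = 0.017), the 1 gene of the 7 called there, against 9.15% of all tested genes called higher. Of 37 genes for ubiquitin and its E1 and E2 enzymes, 7 were higher and 1 lower in senescence, or 18.9% and 2.70% against 13.3% and 13.3% of all tested genes. With shMETTL3 5 were higher and 3 lower, or 13.5% and 8.11% against 12.2% and 11.2% of all, which is near the background, and with shMETTL14 1 was higher and 2 were lower, or 2.70% and 5.41% against 9.15% and 12% of all. UBA6, an E1 enzyme, went from 191 and 230 in control to 458 and 384 with shControl (1.00 ± 0.16, SE, edgeR adjusted p = 1.39e-05). UBE2E3, an E2 enzyme, went from 410 and 421 with shControl to 747 and 936 with shMETTL3 (1.02 ± 0.15, SE, edgeR adjusted p = 8.28e-06). UBE2H, another E2 enzyme, was higher with shMETTL3 than with shControl (0.72 ± 0.14, SE) and lower with shMETTL14 than with shMETTL3 (−0.82 ± 0.14, SE). UBE2E1 and the polyubiquitin gene UBB were higher in senescence by 0.79 ± 0.14 and 0.57 ± 0.14 (SE), and UBE2J1, an E2 enzyme of the endoplasmic reticulum, was lower with shMETTL14 by a log2 fold change of −0.998 ± 0.25 (SE). UBE2N, an E2 enzyme, was the 1 gene of this list higher with shMETTL14, at 129 and 138 with shControl and 203 and 183 after knockdown (0.53 ± 0.16, SE, edgeR adjusted p = 0.0192). UBB is near-identical to other ubiquitin genes in its coding repeats, so its count is uncertain.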

How the data were processed

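FastGRO-seq libraries of nascent RNA came from IMR90 cells, 2 per group and 8 in all. The authors deposited raw counts per gene over gene bodies, made by HOMER on hg19 per the file headers and the study's methods, with gene lengths beside them. The submitters' processing notes also list STAR and deepTools 3.3. The header names a strand option, yet the counts behave as unstranded. The spike-in of the study was not used here. Ribosomal RNA rows held 86.2% to 92.5% of the counts and stayed in the totals.

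Counts were normalized by TMM and fitted with edgeR 4.0.16 in R 4.3.3 by quasi-likelihood, in 1 model over the 4 groups, after a filter on low counts (filterByExpr, minimum count 10). P-values were two-sided and adjusted by Benjamini-Hochberg over 12844 genes, and a gene was called at an adjusted p under 0.05. The biological coefficient of variation was 10.6%. A normalized count is the count divided by the library's effective size and multiplied by the mean effective size. The script was tested on simulated data. Alternatives were DESeq2 1.42.0 (the study's tool, in another version), other scalings, no filter, only the groups compared, a replicate block, a lowess offset for gene length and each library left out. The labels do not name separate cultures. For senescent against proliferating cells the paper reports 2 fastGRO-seq experiments that were biologically independent. P-values measure only the spread between these libraries, and whether it is technical in part was not tested. Replicates differed by 1.73 times the sampling variance in control and in shControl cells, by 3.45 with shMETTL14 and by 7.48 with shMETTL3. No pair was therefore counted as 1 library. The model shared its estimate of spread over the 4 groups. Standard errors and p-values that involve shMETTL3 therefore draw on tighter groups and may be too small.

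Members, gene lists and motifs were chosen with earlier results of these data known. Named with values were the hairpins' targets, the active-site and tissue-restricted subunits, the called members (the 10 with the smallest adjusted p where more were called in a direction, the others by name or log2 fold change alone), the members at the ends of the order per length, those that overlap other genes most, NFE2L1, POMP and the 3 other pathway genes with the smallest adjusted p in each comparison. Other genes named behind counts of 5 or fewer were added after their values were seen. Promoter windows were read from GRCh37.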

Additional observations from a re-analysis of the deposited data

Results flagged for a closer look

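Of the 44 tested proteasome genes, 12 differed between the METTL14 and METTL3 knockdowns by the direct test, 20.5% of them higher and 6.82% lower, where 16.5% and 18.7% of all tested genes were called. In either direction this was 27.3% of the members against 35.2% of all tested genes, a smaller share. With the relation to gene length taken out of the fit, fewer members were higher than lower, where 15.3% and 16.5% of all tested genes were called. The members' median was then −0.03 against 0.00 over all genes. Log2 differences, shMETTL14 minus shMETTL3, were 1.37 for PSMB6, 1.37 for PSMD8, 1.30 for PSME3, 1.27 for PSMD3, 0.83 for PSMB2, 0.76 for PSMB3, 0.74 for PSMC3, 0.74 for PSMG2 and 0.58 for PSMB1. They were −0.60 for PSME4, −0.94 for PSMA4 and −1.04 for PSMD10. Of these, PSMA4, PSMD10, PSME4, PSMB6, PSMD3, PSMD8 and PSME3 were also called with scaling to total counts. Groups of 2 libraries were too small for a check of single outlying libraries.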

How the results depend on the processing

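Of 480 values of called genes under the alternatives, 362 kept their call, 116 lost it and 2 reversed. With scaling to total counts, ribosomal RNA included, the numbers higher and lower were 1 and 5 in senescence, 12 and 1 with shMETTL3, 6 and 2 with shMETTL14 and 4 and 5 between the knockdowns, and PSMB4 (0.0089) and PSMD2 (0.10) changed sign with shMETTL3. The median of all genes then moved to −0.53, 0.58, 0.35 and −0.25. DESeq2 called 0 higher and 7 lower with shMETTL3, and 5 higher and 2 lower between the knockdowns. Its share over all tested genes was not counted for the comparison between the knockdowns. With an offset for gene length, 1 was higher and 7 lower with shMETTL3, 0 higher and 8 lower with shMETTL14, and 6 higher and 7 lower between the knockdowns, against the shares of all tested genes given above. Leaving out 1 library gave 5 to 8 higher and 0 to 0 lower in senescence, 0 to 1 higher and 6 to 18 lower with shMETTL3, 0 to 0 higher and 2 to 4 lower with shMETTL14, and 4 to 12 higher and 2 to 4 lower between the knockdowns. The causes were not tested. Over all tested genes, libraries of the same replicate number did not deviate together (correlations of −0.024, −0.039, −0.021 and 0.053). Counting noise in weak genes pulls such correlations toward 0, so they cannot show that the numbers pair nothing. With the replicate block the counts were 12 and 0, 0 and 13, 0 and 4, and 10 and 3, and all 40 calls held. With 2 libraries a group and 1513930 to 2048475 counts outside ribosomal RNA, small changes of weak genes such as PSMB10, PSMG3 and PSMG4 were not detectable.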
